A study of Mus musculus with 3 samples.

Results

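The cells described here were cementoblast-like cells of mouse molars that held a large amount of Ibsp mRNA, carried transcripts of Hand2, Nts or Alx1, and had almost no Bglap. They were chosen from measured values. Counts were of unique molecular identifiers (UMIs), each of which stands for a captured transcript. Of 27089 deposited cells, 24328 were kept, namely those in which 500 or more genes were detected and mitochondrial genes made up no more than 20% of the UMIs. Among these, a cell was taken if Ibsp made up at least 1.5% of its UMIs, if Hand2, Nts and Alx1 together had at least 2 UMIs (called apical UMIs below), and if Bglap made up less than 0.1% of its UMIs. This gave 1073 cells, of which 25 came from postnatal day 15 (P15), 555 from P25 and 493 from 8 weeks (8W). They are called apical Ibsp-high cells below. The word apical rests on these genes alone, since the position of a cell in the tooth was not measured.

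The study profiled cells that fluoresced for a Pthrp-mCherry knock-in allele, a reporter placed in the gene of parathyroid hormone-related protein. All samples carried this allele, so no sample without it was compared. Mandibular molars of mice aged P15, P25 or 8W were dissociated, mCherry-positive cells were sorted by flow cytometry, and 1 droplet library (10x Chromium, 3′ ends) was made per age from cells pooled over animals. The sort kept cells by the reporter and not by cell type, and other types that fluoresced or passed the gate were also in the libraries.

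Cementum is the mineralized layer that anchors the fibres of the periodontal ligament to the tooth root. Its acellular form covers the cervical root and its cellular form the apical root, and both are laid down by cementoblasts. Ibsp encodes bone sialoprotein, an acidic phosphoprotein that binds hydroxyapatite and is abundant in cementum and bone. Bglap encodes osteocalcin, a Gla protein of mineralized matrix, and has near copies, Bglap2 and Bglap3, among which the counting may have split reads. Hand2 encodes a transcription factor of the distal jaw and Alx1 a homeobox factor of the facial midline, while Nts encodes the neuropeptide neurotensin.

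Ibsp and a pair of related phosphoprotein genes lie close together on chromosome 5 in mm10 (GRCm38), with Dmp1 at chr5:104202613-104214102, Ibsp at chr5:104299171-104311469 and Spp1 at chr5:104435118-104441050. Nts (chr10:102481756-102490486) and Alx1 (chr10:102998707-103030215) are neighbours on chromosome 10, Hand2 lies at chr8:57320983-57324633 and Bglap at chr3:88383501-88384464. These spans are whole genes, exons and introns together, from the GENCODE annotation.

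The share of apical Ibsp-high cells among the kept cells was 0.219% at P15 (25 of 11412, 95% Clopper-Pearson interval 0.142 to 0.323%), 6.67% at P25 (555 of 8325, 6.14 to 7.22%) and 10.7% at 8W (493 of 4591, 9.86 to 11.7%). These intervals cover counting error only. With 1 library per age, no difference between ages was tested, and the share of a sorted sample also moves with the sort. The P25 counts came from another Cell Ranger version and cover a longer list of genes than the other 2. Whether another gene reference or a filter on genes made the lists differ is not known. Counting and age therefore cannot be told apart there.

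The makeup of the Ibsp-high cells differed between the libraries. At P15, 857 kept cells had Ibsp at 1.5% or more, and 27 of them had at least 2 apical UMIs. At P25 this was 559 of 1002, and at 8W 499 of 750. Very few Ibsp-high cells carried both Bglap and the apical genes. Ibsp-high cells with Bglap at 0.1% or more and at least 2 apical UMIs numbered 2 at P15, 4 at P25 and 6 at 8W.

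Seen from the other side, 1002 cells at P15 had at least 2 apical UMIs, 1976 at P25 and 1397 at 8W. Of those with Bglap under 0.1%, Ibsp lay below 0.05% of UMIs in 858 of 954 cells at P15, in 545 of 1918 at P25 and in 238 of 1342 at 8W. There was no empty zone around the threshold. Between 1 and 1.5% of Ibsp lay 12 cells at P15, 131 at P25 and 87 at 8W with at least 2 apical UMIs, whatever their Bglap. The cell nearest the threshold on the inside had 1.65% at P15, 1.5003% at P25 and 1.502% at 8W, and the nearest on the outside had 1.48%, 1.497% and 1.497%. Among the apical Ibsp-high cells, 4, 99 and 77 cells had 1.5 to 2% of Ibsp, 0, 23 and 34 had only 2 or 3 apical UMIs, and 0, 7 and 30 had Bglap between 0.05 and 0.1%.

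**Figure D1:**
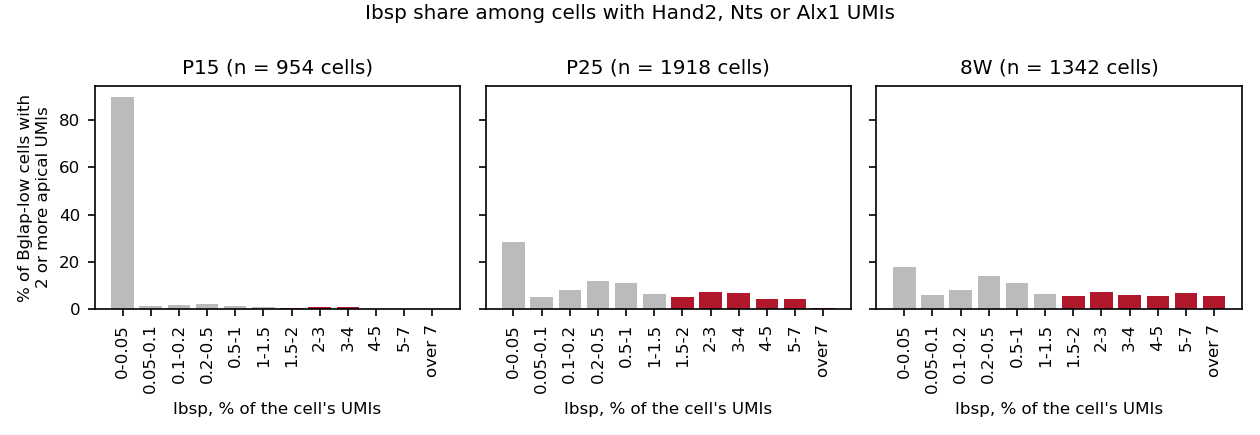
Share of Bglap-low cells with at least 2 apical UMIs (y axis, percent) in each range of Ibsp (x axis, percent of a cell's UMIs) for P15 (954 cells), P25 (1918) and 8W (1342). At P15 nearly all cells sit in the lowest range, while at P25 and 8W the cells spread over the whole range up to the highest without a gap at 1.5%.

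At P25 and 8W the cells were shallower than all kept cells, which had medians of 16586 and 9370 UMIs. The sums of apical Ibsp-high cells held 437666 UMIs at P15, 7939571 at P25 and 4482125 at 8W. Their medians were 15546, 12966 and 8836 UMIs and 3716, 3322 and 2772 genes per cell. The median share of mitochondrial UMIs was 4.85%, 4.83% and 5.22%, against 4.30%, 4.03% and 4.06% in Ibsp-high Bglap-positive cells. Possible doublets were kept. The automatic threshold of Scrublet marked no cell at P25 and did not work there, so the 6% of cells with the highest scores in each library were taken as possible doublets. They made up 8%, 3.24% and 3.04% of apical Ibsp-high cells. Libraries shared 13 to 26 cell barcodes, none of them between apical Ibsp-high cells of different ages.

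The comparisons used 2 other groups. Ibsp-high Bglap-positive cells had Ibsp at 1.5% or more and Bglap at 0.1% or more (488 cells at P15, 272 at P25, 187 at 8W). Hand2-positive cells had at least 1 Hand2 UMI and Ibsp under 1% (365, 993 and 704 cells). Possible doublets made up 4.78% and 7.49% of Bglap-positive and 13.9% and 6.11% of Hand2-positive cells at P25 and 8W. UMIs were summed per library and group and are given as CPM, the UMIs of a gene per 1000000 UMIs of the genes shared by the libraries. Immune-marker cells, which should lack most of these genes, give the background (264 cells at P25, 31 at 8W). Whether that background came from free RNA or from doublets was not tested, and 14.0% of these cells at P25 and 3.23% at 8W had possible doublet scores. They give no background for Mmp9, Plac8 and Mki67. At 8W these genes were higher or more often detected in them than in apical Ibsp-high cells.

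The genes of the rule had the levels that the rule set, given here as a description. Ibsp stood at 29754 CPM at P15, 36350 at P25 and 43301 at 8W in apical Ibsp-high cells. The median cell had 2.78%, 3.35% and 3.93% of its UMIs from Ibsp, and the highest cell reached 10.8% at P25 and 14.7% at 8W. The Ibsp-high Bglap-positive cells held 36020 CPM at P25, close to the apical Ibsp-high cells, and 35795 at 8W, below them.

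Bglap read 16.0, 52.6 and 148 CPM in apical Ibsp-high cells from P15 to 8W, against 9392 CPM at P25 and 11249 at 8W in Bglap-positive cells. Immune-marker cells had 451 and 162 CPM of Bglap in the same libraries. The apical Ibsp-high cells read less, but the rule itself limited their Bglap, so nothing follows from this. The near copy Bglap2, which the rule did not use, read 156, 115 and 174 CPM in apical Ibsp-high cells, with 7913 and 11194 in Bglap-positive and 258 and 94.3 in immune-marker cells at P25 and 8W. Bglap had no UMI in 80%, 64.5% and 31.2% of them.

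Hand2 read 236 CPM at P15, 185 at P25 and 254 at 8W. Nts read 582, 878 and 869 CPM. Alx1 read 96.3, 119 and 113 CPM. The 3 genes were about as high in Hand2-positive cells at P25 and 8W (Hand2 193 and 264, Nts 1130 and 1135, Alx1 120 and 143 CPM), and near 0 in Bglap-positive cells (Hand2 4.47 and 10.1, Nts 14.9 and 23.8, Alx1 2.13 and 1.59 CPM). Most cells carried more than 1 of them. At P25 and 8W, Nts was seen in 99.5% and 97.4%, Hand2 in 83.1% and 80.9%, and Alx1 in 71.0% and 57.6% of apical Ibsp-high cells, and the median cell had 14 and 10 apical UMIs.

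Stmn2, Sparcl1, Olfm2 and Plac8 were proposed as markers with results of these libraries known and are likewise described without a test. Stmn2, a microtubule-binding protein best known from neurons, read 241, 415 and 741 CPM from P15 to 8W. It stood at 79.2 and 125 CPM in Bglap-positive cells, at 217 and 463 CPM in Hand2-positive cells and at 4.92 and 3.37 CPM in immune-marker cells at P25 and 8W. Of these groups, apical Ibsp-high cells held the most in both later libraries. Yet at 8W Stmn2 was not highest above the threshold. Bglap-low cells with at least 2 apical UMIs held 834 CPM there at 0.5 to 1% of Ibsp. Above 1.5% of Ibsp such cells held 672, 711 and 795 CPM in rising ranges. At P25 the same ranges read 377 CPM, then 357, 378 and 522. After thinning each cell to 3000 UMIs, 50.3% of 551 apical Ibsp-high cells at P25 and 76.9% of 476 at 8W had a Stmn2 UMI, against 0.791% of 253 and 0 of 27 immune-marker cells (median depths 12966 and 8836 against 14764 and 9337 UMIs). Unthinned, the shares were 73.0% and 89.2%. For the 27 immune-marker cells, a count of 0 allows a share of up to 11.1% (3 counts of the total).

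Sparcl1, a secreted relative of SPARC, read 1020, 1084 and 1446 CPM, above the 467 and 626 CPM of Bglap-positive cells at P25 and 8W. In Hand2-positive cells it stood at 347 and 626 CPM. In the comparison below with Ibsp-high cells of low Bglap and fewer than 2 apical UMIs, neither Sparcl1 nor Stmn2 was called higher. Plac8, a small cysteine-rich protein, read 591, 381 and 293 CPM. It stood at 59.6 and 81.0 CPM in Bglap-positive cells and at 22.7 and 10.6 CPM in Hand2-positive cells. However, immune-marker cells also held Plac8, with 114 CPM at P25 and 616 at 8W. Bglap-low cells with at least 2 apical UMIs and 1 to 1.5% of Ibsp read 185 and 125 CPM of Plac8, so high Plac8 was not limited to cells above the threshold. Thinned shares of cells with a Plac8 UMI were 55.2% and 48.7% in apical Ibsp-high cells and 8.70% and 18.5% in immune-marker cells.

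Olfm2, an olfactomedin-domain glycoprotein, was much lower at 8W than at P25 in each group. It read 48.1 CPM at P15, 145 (95% Poisson interval 137 to 154) at P25 and 15.7 (12.2 to 19.8) at 8W, and after thinning 172 of 551 cells at P25 and 20 of 476 at 8W had a UMI. Hand2-positive cells had 42.7 and 5.18 CPM, and Bglap-positive cells had 11.5 CPM and then 0. In both libraries the apical Ibsp-high cells held the most of these groups, and the difference between libraries cannot be told apart from that of the counting at P25.

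**Figure D2:**
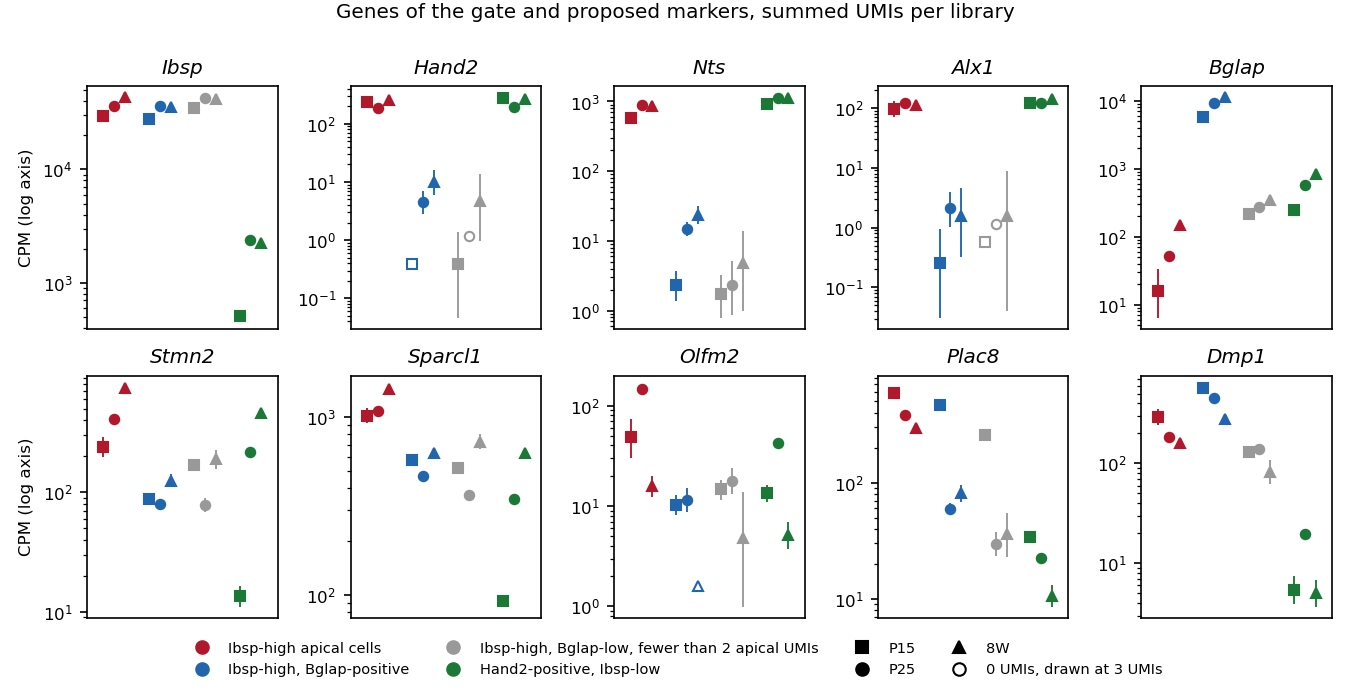
Summed UMIs in CPM (log axis) for the genes of the rule and the proposed markers in apical Ibsp-high cells and the other cell groups at P15, P25 and 8W, 1 point per library and group with 95% Poisson bars. Stmn2 stands at 415 and 741 CPM at P25 and 8W, whereas Olfm2 is at 145 and 15.7 CPM.

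The question of the 2 comparisons was how these cells differ from the other Ibsp-high cells of the same libraries and from the Ibsp-low cells that share their apical genes. Sums of P25 and 8W were compared with edgeR's quasi-likelihood test over 11869 genes (Benjamini-Hochberg adjusted p under 0.05). Each group had 2 sums, 1 per library, and the p-values measure the spread between these 2 libraries of different age. The gate and the test used the same cells, so genes that vary with Ibsp, Bglap, Hand2, Nts or Alx1 differ between the groups by construction. In a sum, fewer expressing cells and fewer transcripts per cell cannot be told apart.

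Against Ibsp-high Bglap-positive cells, 245 genes were higher (2.06% of genes tested) and 372 lower (3.13%) in apical Ibsp-high cells, with a log2 fold change above 1 in size. The library as a block raised these counts to 409 and 554. A further comparison, added after the data were seen, used Ibsp-high cells that had little Bglap but fewer than 2 apical UMIs (175 cells at P25, 70 at 8W). There, 108 genes were higher and 248 lower.

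Mmp9 had the largest increase over Bglap-positive cells among the named genes. Mmp9, the gelatinase MMP-9, read 87.0 CPM at P25 and 75.1 at 8W against 3.41 and 2.65 in Bglap-positive cells (log2 fold change 4.65, SE 0.27, edgeR adjusted p = 0.000510). Immune-marker cells also held Mmp9 (62.4 and 303 CPM). In apical Ibsp-high cells its UMIs were spread over 245 of 555 cells at P25 and 149 of 493 at 8W, and the top cell gave 2.29% and 3.57% of them.

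Dkk2, a secreted Wnt antagonist, read 62.5 and 62.2 CPM against 3.19 and 6.35 (3.82, SE 0.25, edgeR adjusted p = 0.000621). Hand2-positive cells held 89.6 and 88.6 CPM of Dkk2. Nkd1, an intracellular antagonist induced by Wnt signalling, read 240 and 290 CPM against 55.2 and 41.8 (2.40, SE 0.22, edgeR adjusted p = 0.00182). Both genes were thus shared with Hand2-positive cells, in which Nkd1 stood at 167 and 225 CPM.

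Fbln2, the extracellular matrix protein fibulin-2, read 300 and 457 CPM against 39.2 and 43.4 (log2 fold change 3.17). Adgrl3, an adhesion receptor of the latrophilin family, read 150 and 190 CPM against 17.2 and 21.2 (3.14). Ism1, the secreted protein isthmin-1, read 144 and 209 CPM against 19.8 and 21.7 (3.06). Dlg2 (3.13), Prex2 (2.75), Tagln (2.60), Cttnbp2 (2.55) and Sema6a (2.41) were also named. The naming rule took Stmn2 as well, which stays a description because it was proposed from these libraries. Tagln, an actin-binding protein of contractile cells, stood higher still in Hand2-positive cells (272 and 313 CPM against 74.1 and 91.0).

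Of the genes lower than in Bglap-positive cells, Col13a1, a transmembrane collagen, had 3 UMIs at P25 and 5 at 8W in apical Ibsp-high cells, and the level in Bglap-positive cells was 141 times (95% counting interval 47.9 to 690) and 63.5 times (26.5 to 199) as high. Ifitm5, a membrane protein of mineralizing osteoblasts, read 14.0 and 3.13 CPM against 729 and 759 (log2 fold change -6.36, SE 0.81, edgeR adjusted p = 0.0219). Both were close to absent from apical Ibsp-high cells.

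Thbs4, the matricellular protein thrombospondin-4, read 204 and 218 CPM against 3768 and 5766 (-4.50, SE 0.35, edgeR adjusted p = 0.00115). Ptgis, prostacyclin synthase, read 32.7 and 20.8 CPM against 826 and 1034 (-5.10, SE 0.28, edgeR adjusted p = 0.000366). Smpd3, a sphingomyelinase needed for mineralization of bone and teeth, read 49.1 and 21.9 CPM against 1074 and 1086 (-4.91). Col22a1 (-5.25), Ackr4 (-5.17), Cryab (-5.08), Col15a1 (-5.04), Mamdc2 (-4.79) and Sfrp2 (-4.66) were other named decreases. The call of Sfrp2 ended with the library as a block (edgeR adjusted p = 0.0867).

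Of 23 of these genes, the marker Stmn2 among them, 14 kept the call when the comparison was with Bglap-low Ibsp-high cells without apical UMIs. Those cells stood between the others for several genes. Ifitm5 read 330 and 205 CPM there, Smpd3 739 and 254, Thbs4 2245 and 2905. Fbln2, with 88.2 and 286 CPM there, and Prex2, with 56.0 and 84.1 CPM, lost the call. At P15 the 25 apical Ibsp-high cells lay on the same side of Bglap-positive cells for each named gene given here with values, such as Mmp9 (234 against 11.7 CPM), Dkk2 (87.1 against 3.74 CPM), Thbs4 (131 against 3026 CPM) and Ptgis (52.7 against 543 CPM).

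**Figure D3:**
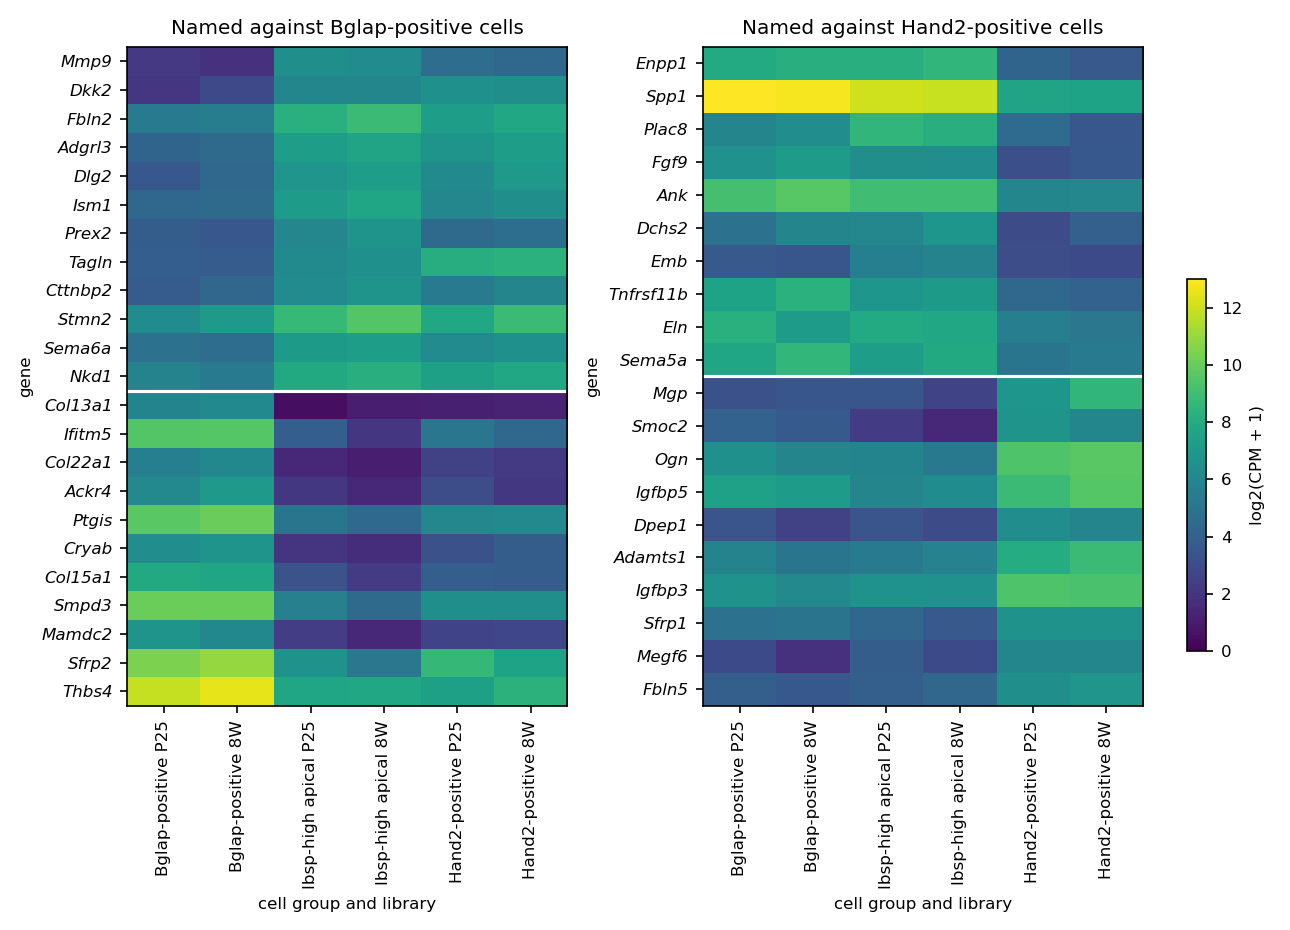
Levels of named genes of both comparisons as log2(CPM + 1) (color scale) in Bglap-positive, apical Ibsp-high and Hand2-positive cells at P25 and 8W, 1 column per group and library. Mmp9 and Dkk2 are high in apical Ibsp-high cells and low in Bglap-positive cells, and Enpp1 and Spp1 are low only in the Hand2-positive columns among the 3 groups.

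Against Hand2-positive cells with little Ibsp, 206 genes were higher (1.74% of genes tested) and 327 lower (2.76%) in apical Ibsp-high cells. The library as a block gave 276 and 772. Among the named genes, Enpp1 had the largest increase. Enpp1, the ectoenzyme that makes pyrophosphate, an inhibitor of mineral growth, read 290 CPM at P25 and 372 at 8W against 17.2 and 11.2 (log2 fold change 4.61, SE 0.26, edgeR adjusted p = 0.000837). Spp1, osteopontin, read 4321 and 3866 CPM against 195 and 188 (4.53, SE 0.26, edgeR adjusted p = 0.000837). Ank, which exports ATP and pyrophosphate from the cell, read 510 and 520 CPM against 62.5 and 63.3 (3.14, SE 0.17, edgeR adjusted p = 0.000837).

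Fgf9, a fibroblast growth factor, read 85.0 and 80.5 CPM against 7.91 and 10.9 (log2 fold change 3.27). Tnfrsf11b, osteoprotegerin, the decoy receptor that blocks osteoclast formation, read 113 and 134 CPM against 19.1 and 16.3 (2.89). Eln, elastin, read 247 and 214 CPM against 45.7 and 34.8 (2.62). Dchs2 (3.12), Emb (2.97) and Sema5a (2.55) were also named. Plac8, which the rule took too, stays a description for the same reason as Stmn2.

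The named decreases were of mixed kinds. Ogn, the small leucine-rich proteoglycan osteoglycin, read 57.1 and 36.9 CPM against 683 and 826 (-3.87, SE 0.35, edgeR adjusted p = 0.00309). Smoc2, a matricellular protein of the SPARC family, read 3.99 and 1.79 CPM against 105 and 61.6 (-4.66). Igfbp5 (-3.04) and Igfbp3 (-2.65), which bind insulin-like growth factors, read 58.4 and 79.6 and 98.5 and 95.2 CPM against 463 and 759 and 696 and 614. All 4 genes were many times lower in apical Ibsp-high cells in both libraries. A few cells carried much of what remained at P25, where 5 cells held 56.4% of the Igfbp3 and 66.5% of the Igfbp5 UMIs. Igfbp3 read 225 CPM there in Bglap-low cells with at least 2 apical UMIs and 1.5 to 2.5% of Ibsp. Above 4% it read 18.1 CPM.

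Mgp, the mineralization inhibitor matrix Gla protein, read 10.2 and 5.37 CPM against 113 and 373 (-4.77), a call that ended with the library as a block (edgeR adjusted p = 0.0917). Adamts1, a matrix protease, read 41.2 and 53.4 CPM against 266 and 460 (-2.83) and also lost its call with the block (edgeR adjusted p = 0.0581). Dpep1 (-2.92), Sfrp1 (-2.61), Megf6 (-2.49) and Fbln5 (-2.48) made up the rest.

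Enpp1, Spp1 and Ogn were followed along the Ibsp range. Among Bglap-low cells with at least 2 apical UMIs, Enpp1 read 7.72 CPM at P25 in cells with under 0.1% Ibsp, 103 at 1 to 1.5%, 172 at 1.5 to 2.5% and 406 above 4%. At 8W the same ranges read 12.7, 64.3, 163 and 520 CPM. Thus cells just below the threshold already stood far above the Ibsp-poor cells.

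In the same 4 ranges Spp1 read 18.6, 1271, 2642 and 6032 CPM at P25, and 25.1, 209, 1421 and 5618 at 8W. Ogn read lower above the threshold than below it, with 939, 167, 120 and 18.9 CPM at P25 and 1158, 76.4, 31.1 and 32.3 at 8W. For Spp1 at 8W, the largest ratio between neighbouring ranges lay at the 1.5% threshold, with 209 CPM below and 1421 above. At P25 it lay lower, with 80.9 CPM at 0.1 to 0.5% of Ibsp and 536 at 0.5 to 1%. Hand2 stayed between 123 and 194 CPM over all ranges at P25 and between 200.1 and 270.1 at 8W. These values describe the ordering by Ibsp, which the rule used, and carry no test.

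**Figure D4:**
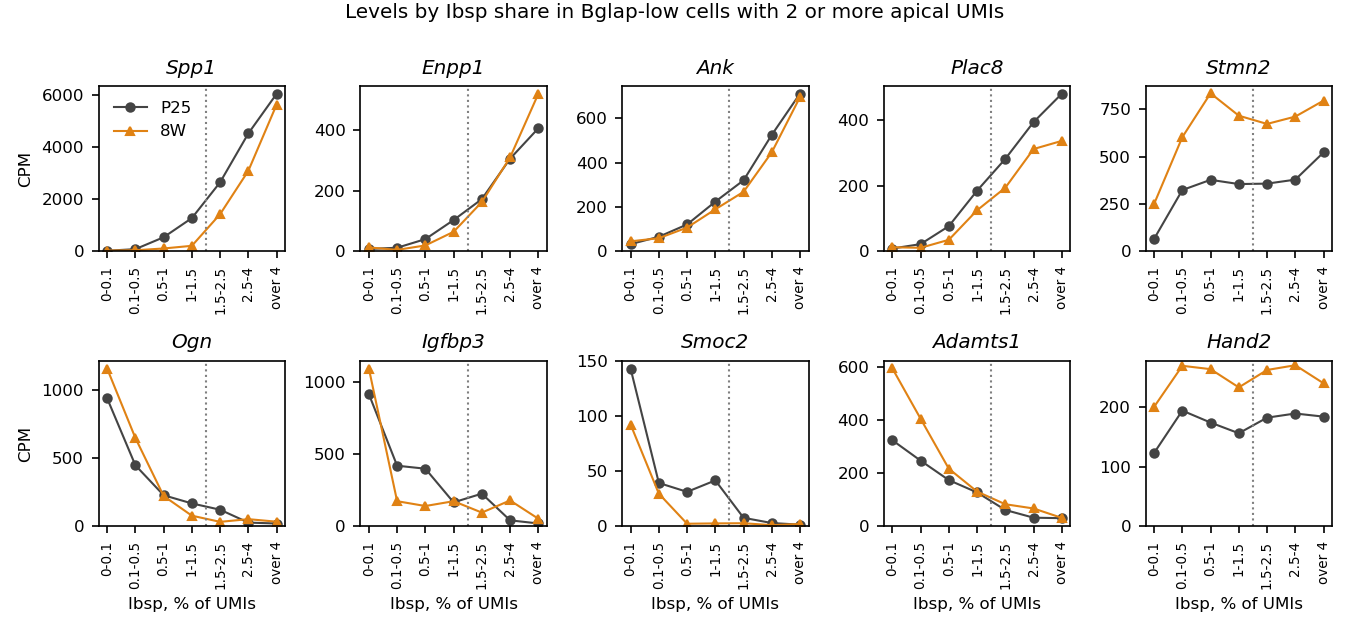
Levels in CPM (y axes) by range of Ibsp (x axes, percent of UMIs) in Bglap-low cells with at least 2 apical UMIs at P25 and 8W, with the 1.5% threshold as a dotted line. At P25, Enpp1 runs from 7.72 to 406 CPM and Ogn from 939 to 18.9 CPM. Spp1 stands at 209 CPM just below the threshold and 1421 CPM just above at 8W, and at 1271 and 2642 CPM at P25.

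Promoters of the genes that stood out were searched for TGTGGT and its reverse complement ACCACA, the core letters of Runx binding, on both strands, in the window of 250 bases before to 50 after each start that RefSeq gives for GRCm38.p6. Runx2, the Runx factor of mineralizing cells, read 343 and 423 CPM in apical Ibsp-high cells, 316 and 436 in Bglap-positive cells and 223 and 290 in Hand2-positive cells (0.69, edgeR adjusted p = 0.0822, and 0.000156 with the library as a block). The letters occurred in 5113 of 27025 promoters (18.9%). They occurred in 3 of 8 promoters found for the named genes higher than in Hand2-positive cells, in 3 of 7 for those lower, in 2 of 6 for those higher than in Bglap-positive cells and in 0 of 6 for those lower. The 3 genes of the first set are shown with Bglap, which the rule used, because their levels follow Ibsp or, for Bglap, helped to define the cells. Each window has 30 bases, reads 5′ to 3′ along the gene's strand and has the motif in capitals. Enpp1 is at chr10:24712286-24712315 (minus strand), Plac8 at chr5:100572389-100572418, chr5:100572289-100572318 and chr5:100572162-100572191 (minus strand, in this order), Spp1 at chr5:104434971-104435000 (plus strand) and Bglap at chr3:88384581-88384610 (minus strand).
Enpp1: cactctttgcagACCACAcagcgattccag
Plac8, first: ctaatcaggggaACCACAccctctcctttc
Plac8, next: ggtgcctggattACCACAgccaatcagagc
Plac8, last: actcaaccccagACCACAggaccggttctg
Spp1: tttttttttttaACCACAaaaccagaggag
Bglap: ccgcaatcacctACCACAgcatcctttggg
A match of these letters is a description of the sequence, and binding was not measured.

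Gene lists describe which programs the apical Ibsp-high cells carried. Counts within lists use the adjusted p alone, by which 2.68% of genes tested were higher and 3.84% lower than in Bglap-positive cells and 2.38% and 3.17% higher and lower than in Hand2-positive cells. The median log2 fold change of all genes was 0.025 and 0.007.

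The study distinguishes α cementoblasts, linked to acellular cementum, and β cementoblasts, linked to cellular cementum, by markers that it drew from libraries including these, so the counts are not independent evidence. It also lists Ibsp for the α and Bglap for the β cluster, and both were left out here because the rule used them. Marker genes that vary with Ibsp or Bglap differ between the groups by construction. Of the 7 α markers, 6 were higher than in Hand2-positive cells (Ank, Aqp1, Bmp3, Enpp1, Timp3 and Wnt5a, median 1.93) and 0 of 7 were called against Bglap-positive cells (median -0.26, edgeR and DESeq2, with 1 at an unadjusted p under 0.05). The library as a block called 3 there, Timp3 higher and Ank and Bmp3 lower. Timp3, a metalloproteinase inhibitor, read 1770 and 2652 CPM against 447 and 802 in Hand2-positive and 1254 and 2265 in Bglap-positive cells. Wnt5a, a Wnt ligand of the non-canonical branch, read 518 and 597 CPM against 215 and 224 and against 569 and 752.

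Of the 7 β markers, 5 were lower than in Bglap-positive cells (Col1a1, Ifitm5, Phex, Smpd3 and Sparc, median -3.18) and Phex was lower than in Hand2-positive cells, where the block called Dmp1 higher and Col11a2 and Phex lower. Against Bglap-low Ibsp-high cells without apical UMIs, Col1a1 and Sparc were lower. Dmp1, a mineral-binding phosphoprotein counted in both lists, read 291, 184 and 161 CPM from P15 to 8W in apical Ibsp-high cells. It stood at 453 and 280 CPM in Bglap-positive cells (log2 fold change -1.12, SE 0.69, edgeR adjusted p = 0.481) and at 19.6 and 5.06 CPM in Hand2-positive cells (3.84, SE 0.77, edgeR adjusted p = 0.0834). The last difference passed the threshold with the library as a block (edgeR adjusted p = 0.0364).

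Type I collagen was low in apical Ibsp-high cells beside this. Col1a1 read 8104 and 8292 CPM against 28272 and 15528 in Bglap-positive cells (-1.46, SE 0.32, edgeR adjusted p = 0.0402, and 0.145 with the library as a block) and 17295 and 17308 in Hand2-positive cells. Immune-marker cells held 7795 CPM of Col1a1 at P25 and 525 at 8W, so at P25 the level of apical Ibsp-high cells was close to that of cells that should lack it. Sparc, the matrix protein osteonectin, read 5167 and 4955 CPM against 21275 and 13419 (-1.81, SE 0.29, edgeR adjusted p = 0.0115). Lox, which crosslinks collagen, read 21.6 and 14.98 CPM against 407 and 352 (-4.38).

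Within the list of 25 collagens and collagen-making enzymes, 4 genes were higher than in Bglap-positive cells (Col16a1, Col6a1, Col6a2 and Loxl1) and 7 lower, with a median of -0.67. Col6a1 (919 and 938 CPM) and Col6a2 (737 and 767 CPM), chains of the microfibrillar collagen VI, stood at 524 and 382 and at 423 and 333 CPM in Bglap-positive cells, but at 987 and 1287 and at 837 and 1125 CPM in Bglap-low cells without apical UMIs. Against the latter cells the log2 fold changes were -0.21 and -0.30 without a call (edgeR adjusted p = 0.556 and 0.401). The increase was thus not found there, and no decrease was shown. Against Hand2-positive cells, 2 of 25 were lower (Col24a1 and Plod2) and 0 higher by edgeR, with 12 lower and 3 higher at an unadjusted p under 0.05. DESeq2 called 11 lower, Col1a1 and Col1a2 among them, and 2 higher, and the library as a block gave 7 lower and 3 higher.

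Of 13 tested genes of mineral matrix and phosphate, 5 were lower than in Bglap-positive cells (Alpl, Ifitm5, Phex, Smpd3 and Spp1, median -1.05) and 0 higher (edgeR, DESeq2 and at an unadjusted p under 0.05). Against Hand2-positive cells, Ank, Enpp1 and Spp1 were higher and Alpl, Mgp and Phex lower, and the library as a block gave 5 and 3. Alpl, tissue-nonspecific alkaline phosphatase, which breaks down pyrophosphate, read 26.2 and 15.9 CPM in apical Ibsp-high cells against 303 and 239 in Bglap-positive cells (-3.69, SE 0.33, edgeR adjusted p = 0.00191). It read 98.7 and 79.8 CPM in Hand2-positive cells (-1.95, edgeR adjusted p = 0.0185). Alpl was also lower against Bglap-low Ibsp-high cells without apical UMIs, with 229 and 198 CPM. In immune-marker cells Alpl read 74.2 and 16.8 CPM.

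Spp1 at 9469 and 7135 CPM in Bglap-positive cells was higher than in apical Ibsp-high cells (-1.05, edgeR adjusted p = 0.0401). In Bglap-low cells without apical UMIs it stood at 1480 and 1942 CPM, and there the direction turned (1.35, edgeR adjusted p = 0.0143). Phex, an endopeptidase that acts on phosphate balance, had 3 UMIs at P25 and 1 at 8W in apical Ibsp-high cells, with ratios of Bglap-positive over apical Ibsp-high cells of 5.87 (95% counting interval 1.55 to 32.8) and 18.9 (2.54 to 841).

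Among 12 osteogenic transcription factors, Msx1 and Twist1 were higher and Mef2c lower than in Bglap-positive cells, and the library as a block gave 3 higher and 3 lower. Against Hand2-positive cells, Mef2c and Msx1 were higher and Sox9 lower, while DESeq2 and the library as a block each called 4 higher and 1 lower. Msx1, a homeobox factor of tooth mesenchyme, read 198 and 253 CPM against 78.4 and 97.4 (1.34, SE 0.15, edgeR adjusted p = 0.00342) and against 134 and 138 in Hand2-positive cells (0.83, edgeR adjusted p = 0.0219). Mef2c, a MADS-box factor, read 334 and 387 CPM, between Bglap-positive (755 and 1160) and Hand2-positive cells (121 and 150), and differed from both by test (edgeR adjusted p = 0.00724 and 0.00842). Sp7, the osteoblast factor osterix, read 108 and 105 CPM, with 147 and 115 in Bglap-positive and 129 and 135 in Hand2-positive cells and no call.

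Jaw patterning factors were counted next. Hand2 and Alx1, which the rule used, were left out of the list. Of 15 factors tested, 5 were higher than in Bglap-positive cells (among them Alx4, Dlx2, Prrx2 and Tbx3) and 4 lower (Barx1, Gsc, Lhx6 and Lhx8), with a median of 0.35. Alx4, a homeobox relative of Alx1, read 20.5 and 21.7 CPM against 1.70 and 1.06 (3.76, SE 0.29, edgeR adjusted p = 0.000932).

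Prrx2, a factor of limb and facial mesenchyme, read 432 and 530 CPM against 200.2 and 207 (1.22, SE 0.15, edgeR adjusted p = 0.00493). Dlx2 (1.03) and Tbx3 (1.00) differed less. In Hand2-positive cells, Alx4 stood at 19.3 and 19.6 and Prrx2 at 436 and 515 CPM, within 0.22 on the log2 scale of the apical Ibsp-high cells and without a call. In this comparison 2 of 15 factors were lower and 0 higher (edgeR and DESeq2, with 1 higher at an unadjusted p under 0.05), and the library as a block gave 2 higher (Foxf2 and Tbx3) and 3 lower.

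Barx1, a factor of the molar field, showed the reverse. It read 23.6 and 12.5 CPM in apical Ibsp-high cells against 251 and 328 in Bglap-positive cells (-3.97, SE 0.35, edgeR adjusted p = 0.00191) and 69.2 and 56.5 in Hand2-positive cells (-1.66, edgeR adjusted p = 0.0338). Gsc read 2.79 and 1.34 CPM against 29.2 and 41.3 (-3.99) and 8.27 and 9.01 (-1.86). Lhx8, a LIM homeobox factor of the oral jaw, read 7.58 and 6.71 CPM against 32.4 and 36.0 (-2.26). Alx4 remained higher and Barx1, Gsc and Lhx8 lower against Bglap-low Ibsp-high cells without apical UMIs. At P15, Barx1 read 64.2 CPM in the 25 cells and 307 CPM in Bglap-positive cells.

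**Figure D5:**
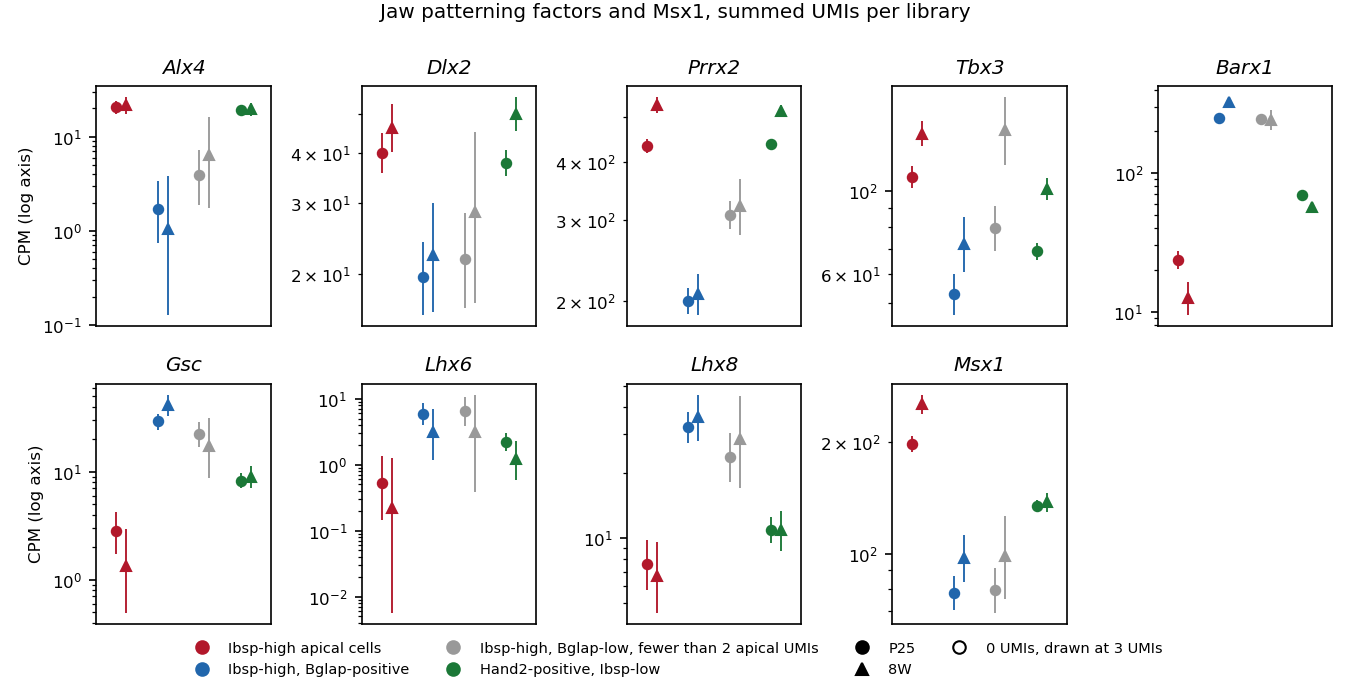
CPM (log axis) of jaw patterning factors in apical Ibsp-high cells and the other groups, 1 point per library and group with 95% Poisson bars. Alx4 stands at 20.5 and 21.7 CPM in apical Ibsp-high cells at P25 and 8W, near the Hand2-positive 19.3 and 19.6 CPM, while Barx1 is at 23.6 and 12.5 CPM against 251 and 328 CPM in Bglap-positive cells.

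Of 16 periapical markers that the study drew from libraries including these, 3 were higher than in Bglap-positive cells (Csrp2, Lrrc17 and Tnn) and Ebf1 was lower, where the block gave 4 and 4. Hand2, Nts and Alx1, which the study also lists as periapical, were left out because the rule used them. Csrp2, a LIM-domain protein, read 843 and 886 CPM against 243 and 215 (1.89, SE 0.17, edgeR adjusted p = 0.00167) and stood at 941 and 945 in Hand2-positive cells. Both calls of Tnn, the matricellular protein tenascin-N, which was higher than in Bglap-positive and lower than in Hand2-positive cells, ended with the library as a block (edgeR adjusted p = 0.123 and 0.135). Against Hand2-positive cells, 1 of the 16 was higher (Spon1) and 5 lower (Ebf1, Htra1, Itgbl1, Mgp and Tnn), and the library as a block called 10 lower. Ebf1, a factor of progenitor stroma, read 5.72 and 3.35 CPM against 40.4 and 63.0 (-3.33). Of 21 precursor markers of the study, 3 were higher (Col16a1, Id1 and Ptn) and 6 lower than in Bglap-positive cells, where the library as a block gave 5 and 10. In the other comparison, 10 were lower than in Hand2-positive cells and 0 higher by edgeR, with 2 higher at an unadjusted p under 0.05, 1 higher by DESeq2 and 2 with the library as a block.

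Of 29 Wnt pathway genes tested, 20 had no call in each comparison. Of the 29, 6 were higher (Dkk2, Lef1, Nkd1, Tcf7, Wif1 and Wnt11) and 3 lower (Nkd2, Sfrp2 and Sfrp4) than in Bglap-positive cells, and the library as a block gave 13 and 6. Lef1 and Tcf7, the nuclear partners of β-catenin, read 102 and 127 and 180 and 185 CPM, against 50.7 and 60.9 and 92.4 and 127 (edgeR adjusted p = 0.00724 and 0.0400). Both were also higher than in Hand2-positive cells, with 60.2 and 62.3 CPM for Lef1 (1.01, edgeR adjusted p = 0.00992) and 48.8 and 60.4 for Tcf7 (1.85, edgeR adjusted p = 0.00241). They were the 2 genes of the list that were higher in each comparison, the one with Bglap-low cells without apical UMIs included.

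Wif1, the Wnt inhibitory factor, was abundant, with 3329 and 4619 CPM in apical Ibsp-high cells, 1635 and 1602 in Bglap-positive cells (1.27, SE 0.21, edgeR adjusted p = 0.0154) and 3082 and 4300 in Hand2-positive cells. It had no call against Bglap-low Ibsp-high cells without apical UMIs. Sfrp4, a secreted Wnt antagonist, read 27.4 and 48.5 CPM against 303 and 346 in Bglap-positive cells (-3.13, edgeR adjusted p = 0.0104). Against Hand2-positive cells, 7 of 29 were higher, among them the ligands Wnt5a, Wnt5b, Wnt7b and Wnt10a, and 2 lower (Sfrp1 and Wnt11), and the library as a block gave 10 and 7. The call of Wnt10a ended with it (edgeR adjusted p = 0.142). Wnt7b read 89.1 and 85.4 CPM against 29.5 and 23.4 (1.82, edgeR adjusted p = 0.0108). Axin2, a general target of canonical Wnt signalling, read 45.5 and 49.2 CPM, with 40.2 and 36.0 in Bglap-positive and 30.4 and 44.8 in Hand2-positive cells and no call.

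Of 26 BMP and TGF-β genes tested, 6 were higher than in Bglap-positive cells (Bmp4, Bmp5, Bmp7, Id1, Id2 and Inhba, median 0.59) and 0 lower by edgeR, with 2 lower at an unadjusted p under 0.05 and 1 by DESeq2. The library as a block gave 11 and 4. Id1, a direct target of BMP signalling, read 407 and 510 CPM against 123 and 154 (1.72, SE 0.17, edgeR adjusted p = 0.00191). Bmp4 read 125 and 167 CPM against 53.7 and 61.4 (1.32, edgeR adjusted p = 0.00740), and Inhba, the activin subunit, 131 and 94.3 against 39.2 and 29.7 (1.67, edgeR adjusted p = 0.00915). Against Bglap-low cells without apical UMIs, only Bmp7 and Inhba kept the call, Tgfb2 was lower and the median was 0.16. Against Hand2-positive cells, Bmp2, Bmp3, Bmp7 and Smad7 were higher and Tgfb2, Tgfb3 and Tgfbi lower, and the block gave 11 and 8. Bmp2 read 522 and 549 CPM against 149 and 159 (1.91, edgeR adjusted p = 0.00288).

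The reporter gene and its pathway were present. Pthlh, which encodes PTHrP, read 232, 519 and 619 CPM from P15 to 8W in apical Ibsp-high cells and was higher than in Hand2-positive cells (114 and 99.8 CPM, log2 fold change 2.51, SE 0.19, edgeR adjusted p = 0.00185). Bglap-positive cells held 402 and 360 CPM (0.55, edgeR adjusted p = 0.136, and 0.00738 with the library as a block). Thinned detection was 66.4% and 76.1%, against 6.72% and 0% in immune-marker cells at P25 and 8W.

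Pth1r, the receptor of PTHrP, was lower than in both groups. It read 24.9 and 26.8 CPM against 59.4 and 73.1 in Bglap-positive cells (-1.37, SE 0.15, edgeR adjusted p = 0.00288) and 53.1 and 62.3 in Hand2-positive cells (-1.05, SE 0.15, edgeR adjusted p = 0.0103). Rgs2, a signalling regulator induced by that receptor, read 191 and 242 CPM and was higher than in both (1.46 and 0.97, edgeR adjusted p = 0.00764 and 0.0363).

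Of 21 tested genes of ligament, tendon and matricellular proteins, 4 were higher (Mkx, Postn, Tnn and the marker Sparcl1, for which this is a description only) and 7 lower than in Bglap-positive cells, and the library as a block gave 2 and 8. Against Hand2-positive cells, Eln and the marker Sparcl1 were higher and 5 lower (Fbln5, Smoc2, Thbs2, Thbs3 and Tnn). Against Bglap-low Ibsp-high cells without apical UMIs, 0 of 22 tested genes of the list were called higher, Sparcl1 included, and 9 lower. Tnmd, the tendon protein tenomodulin, read 82.0 and 65.7 CPM against 471 and 510 (-2.74, SE 0.24, edgeR adjusted p = 0.00159), and Scx, the tendon factor scleraxis, 1.60 and 1.34 against 7.88 and 13.2 (-2.78). Hand2-positive cells held 75.3 and 54.0 CPM of Tnmd and 4.08 and 3.21 of Scx, without a call. Postn, periostin, read 1534 and 2911 CPM against 863 and 803 (1.38, edgeR adjusted p = 0.0300), a call that ended with the library as a block (edgeR adjusted p = 0.131). Against Bglap-low cells without apical UMIs (2405 and 4048 CPM) its sign changed without a call (-0.47, edgeR adjusted p = 0.511).

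A few genes best known from neurons were present beside Nts and Stmn2. Of 29 such genes, 13 passed the filter on low counts. Against Hand2-positive cells, 3 were higher and 5 lower, and the library as a block gave 5 and 6. Calca, Cplx2 and Tubb3 were higher than in Bglap-positive cells, the marker Stmn2 left aside, and Penk was among the genes lower there. Against Bglap-low Ibsp-high cells without apical UMIs, edgeR called none of the list higher, Stmn2 included, and Penk lower. Tubb3, a β-tubulin, read 357 and 351 CPM against 191 and 163 (0.97, edgeR adjusted p = 0.0223) and against 134 and 170 in Hand2-positive cells (1.33, edgeR adjusted p = 0.00967). Stmn4, a relative of Stmn2, was at 1.33 and 0.671 CPM, against 35.2 and 41.1 in Hand2-positive cells (-5.02, SE 0.43, edgeR adjusted p = 0.00225). Penk, proenkephalin, read 104 and 97.7 CPM, below Bglap-positive cells (161 and 250) and above Hand2-positive cells (27.0 and 33.7), with a call in each (edgeR adjusted p = 0.0246 and 0.00433).

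Of the neuron markers, several were at or near 0. The 7 neuron markers summed to 367 and 362 CPM at P25 and 8W, of which Tubb3 gave 357 and 351. Snap25, Elavl3 and Elavl4 had no UMI in apical Ibsp-high cells at P25 and 8W, Rbfox3 had 3 UMIs and Nefl 1 at P25 and both had none at 8W. Syn1, the synaptic vesicle protein synapsin-1, had 68 UMIs in 56 cells at P25 and 50 UMIs in 41 cells at 8W. It read 9.05 and 11.2 CPM, above the 1.91 and 3.33 CPM of Hand2-positive cells (2.09, SE 0.33, edgeR adjusted p = 0.0146), and Bglap-positive cells held 8.73 and 12.2 CPM without a call. The part of these markers in the results was not tested. The neurotensin receptor genes Ntsr1 and Ntsr2 had no UMI in any of the groups either, while Sort1, a sorting receptor that also binds neurotensin, read 9.45 and 7.60 CPM, below Bglap-positive (19.0 and 18.5) and Hand2-positive cells (19.1 and 20.97), with a call in each comparison (edgeR adjusted p = 0.0260 and 0.0272).

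Of 8 genes that act on osteoclasts, Sema3a was higher and Csf1, Sema3e and Tnfrsf11b lower than in Bglap-positive cells, while Sema3a and Tnfrsf11b were higher and Csf1 and Cxcl12 lower than in Hand2-positive cells, where the library as a block called 4 lower. Sema3a, a repulsive guidance cue that also restrains osteoclasts, read 66.8 and 62.6 CPM against 30.2 and 34.9 (0.98, edgeR adjusted p = 0.0151) and 24.4 and 30.5 in Hand2-positive cells (1.36, edgeR adjusted p = 0.00611). Csf1, the macrophage colony-stimulating factor, read 3.86 and 4.02 CPM and was lower than in both groups (-1.77 and -1.49, edgeR adjusted p = 0.00781 and 0.0164).

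Markers of other cell types were checked as lists. The 12 immune markers summed to 517 CPM at P25 and 14.5 at 8W, against 22575 and 34221 in immune-marker cells. The P25 sum came mostly from 1 cell, which held 99.3% of the S100a8 UMIs and 98.6% of the S100a9 UMIs of the group. Of 7 immune markers tested, edgeR called 0 in either comparison, with 1 lower than in Hand2-positive cells at an unadjusted p under 0.05, while DESeq2 called S100a8 higher in both and Csf1r lower than in Hand2-positive cells, and the library as a block called 2 higher and 3 lower in the first and second comparison. The 10 epithelial markers summed to 591 CPM at P25, led by Krt14 with 299 CPM, and to 97.5 at 8W with Krt14 at 38.5 CPM. In Hand2-positive cells they summed to 2314 and 392 CPM and in immune-marker cells to 1426 and 47.1 CPM. With the library as a block, 6 of the 10 were higher than in Bglap-positive cells and 8 lower than in Hand2-positive cells, where edgeR without the block and DESeq2 called 0 and 0 had an unadjusted p under 0.05. Their part in the results was not tested. At P25, 90 apical Ibsp-high cells (16.2%) and at 8W 7 (1.42%) had UMIs of at least 3 epithelial markers, against 18.4% and 1.07% of Bglap-positive, 23.8% and 1.14% of Hand2-positive and 25.4% and 3.23% of immune-marker cells.

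The 6 osteoclast markers summed to 559 and 696 CPM, mostly Ctsk (463 and 615 CPM), which matrix-resorbing and stromal cells also use, with Atp6v0d2 and Calcr at 0. Of 3 tested, Mmp9 was higher in both comparisons and Acp5 lower than in Hand2-positive cells. At least 3 of these markers were seen in 3.24% and 1.83% of apical Ibsp-high cells. This held for 0.735% and 0% of Bglap-positive and 6.75% and 1.70% of Hand2-positive cells. Their part in the results was not tested. Of the 7 odontoblast markers, Gsx2 was at 0 at P25 and 8W and Dspp at 0.798 CPM and 0, and Col1a1 gave nearly all of the sum. The 7 endothelial markers summed to 4.26 and 3.35 CPM, with Cdh5, Kdr, Flt1 and Emcn at 0. The 7 mural markers summed to 87.8 and 62.2 CPM, led by Abcc9, which was higher and Rgs5 lower than in Bglap-positive cells, with Acta2, Notch3 and Rgs5 lower than in Hand2-positive cells. Both calls of Rgs5 ended with the library as a block (edgeR adjusted p = 0.0523 and 0.140). The 6 Schwann cell markers summed to 13.2 and 11.4 CPM with Sox10 at 0, and the 5 erythroid markers to 43.2 and 17.4 CPM.

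Markers of cycling cells were low but present. Mki67, a protein of cycling cells, read 14.4 and 40.2 CPM and was detected after thinning in 1.45% and 1.89% of apical Ibsp-high cells. In immune-marker cells, which give no background for it, the shares were 8.70% and 7.41%. Cells with UMIs of at least 3 cycling markers numbered 51 of 555 at P25 (9.19%) and 11 of 493 at 8W (2.23%). In Bglap-positive cells the shares were 3.68% and 1.07%, and in Hand2-positive cells 18.9% and 5.11%. These shares were not thinned. The P25 counts held 8 of these markers and the 8W counts 7, so the 2 libraries were not scored alike. Of 7 cycling genes tested, Hmgb2 and Stmn1 were higher than in Bglap-positive cells, where the call of Stmn1 ended with the library as a block (edgeR adjusted p = 0.0536) and DESeq2 also called Mki67 higher. Of these, 0 of 7 were called against Hand2-positive cells by edgeR, with 3 lower at an unadjusted p under 0.05, 1 lower by DESeq2 and 3 lower with the library as a block. Hmgb2 read 227 and 224 CPM against 59.0 and 55.6 (1.95, edgeR adjusted p = 0.00528).

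Of 13 genes of the dissociation response, 0 were higher in either comparison by edgeR, by DESeq2 or at an unadjusted p under 0.05. At that unadjusted p, 4 were lower than in Bglap-positive and 5 lower than in Hand2-positive cells. edgeR called Atf3 lower in both comparisons and Klf6 lower than in Hand2-positive cells, and the library as a block called Jun lower in both and Klf6 in the second. Their part in the results was not tested. Atf3, a stress-induced factor, read 31.0 and 14.3 CPM against 216 and 333 in Bglap-positive cells (-3.56, edgeR adjusted p = 0.00721) and 104 and 122 in Hand2-positive cells (-2.17, edgeR adjusted p = 0.0338), and both calls ended with the library as a block (edgeR adjusted p = 0.0519 and 0.113).

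The apical Ibsp-high cells of 8W and P25 were set side by side without a test. Of 3142 genes with at least 50 CPM in the higher library, 5 were more than 2 on the log2 scale higher at 8W (0.159%) and 26 lower (0.827%). Tonsl (5 UMIs at P25, 405 at 8W), Ptp4a1, Srp54b, Sept2 and Mkks were higher, and the lowest were Rnasek (1773 UMIs at P25, 8 at 8W), S100a9, Atp6v0c, Mrpl53, Egr3, Fbxl7, S100a8 and Krt17. The 5 higher genes had the same direction past 1 in Hand2-positive cells (5 of 5) and in Bglap-positive cells (4 of 4 with a value). The 8 lowest did so in 8 of 8 and in 3 of 5. S100a8 and S100a9 rested on the single P25 cell named above, and 5 cells held 77.3% of the Krt17 UMIs at P25. Age, the counting software and the list of counted genes cannot be told apart for the others.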

How the data were processed

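Cells positive for Pthrp-mCherry from mouse mandibular molars were profiled in 1 library each at P15, P25 and 8W. The authors deposited, for each library, the UMI counts per gene and cell from Cell Ranger, without normalization. The submitters' processing notes name mm10 and version 6.1.2. The file headers give 6.1.2 for P15 and 8W (22056 features) and 6.0.1 for P25 (32293 features). The 21446 shared gene identifiers were used, and gene names came from the files.

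Cells were chosen by the thresholds above, doublets kept. Counts were summed per library and cell group. The 6 sums of 3 groups at P25 and 8W were compared with edgeR 4.0.16 in R 4.3.3 (TMM, filterByExpr, robust quasi-likelihood test, Benjamini-Hochberg adjustment). Calls needed an adjusted p below 0.05 together with more than 1 on the log2 scale in either direction, and list counts used the adjusted p without the fold. DESeq2 1.42.0 was run beside it. The test was checked on simulated data of 11876 genes, where it recovered 98% and 99% of genes changed by 2 on the log2 scale (against Bglap-positive and Hand2-positive cells) and 14% and 27% of those changed by 1. The simulation drew independent sums with 1 common dispersion (0.0542) for all genes and no difference between libraries. Changes were placed only in genes above a minimum level. These rates therefore need not hold for the measured sums. Sums of the same library come from the same pooled animals. Their deviations from the group means correlated across genes (r = 0.458, 0.651 and 0.527 for the 3 pairs of groups), and a fit with the library as a block was added for this reason.

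Named genes had the 12 highest and 12 lowest log2 fold changes against Bglap-positive cells and the 10 highest and 10 lowest against Hand2-positive cells, with a few genes not reported here, among called genes with the same direction in both libraries and at least 50 CPM in the higher group, leaving out the genes of the rule and mitochondrial and ribosomal genes. For 8W over P25, ratios on the TMM scale past 2 on the log2 scale were listed, up to 8 each way. Gene spans came from GENCODE (vM21) and promoters from RefSeq. Immune-marker cells had UMIs of at least 4 of 12 immune markers. For detection, each cell was thinned to 3000 UMIs. In a single library, shares have Clopper-Pearson intervals and levels Poisson intervals at 95%, which cover counting error only. Alternatives changed the thresholds, the cells kept, the removal of possible doublets, the normalization, the filter, the depth, the comparison cells and the libraries. Cells were scored with Scrublet in scanpy 1.11.5 on Python 3.11.15, figures were drawn with matplotlib 3.10.9, and intervals used scipy 1.17.1. The members and gene lists were chosen with earlier results of these data known. Other libraries and the study's imaging were not analysed here.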

Additional observations from a re-analysis of the deposited data

Results flagged for a closer look

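Cells that met the rule were also found at P15, a library that the comparisons of P25 and 8W did not use. They made up 0.219% of the kept cells there (25 of 11412), above the 0.0263% that a count of 0 allows (3 counts of the total). The comparison is with a count of 0 and covers counting error only. It is no evidence on these cells beyond their number, since the rule fixed their defining genes. Their sum held 437666 UMIs. Possible doublets by Scrublet score made up 8% of them.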

How the results depend on the processing

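Against Bglap-positive cells, the library as a block gave 409 genes higher, where 245 were higher without it, and against Hand2-positive cells 772 lower, where 327 were. It ended the call of 1 of 23 and 2 of 20 named genes. With the P15 sums in place of those of P25 or 8W, counts against Bglap-positive cells ranged from 12 to 21 higher and from 22 to 43 lower, and against Hand2-positive cells from 13 to 14 higher and from 5 to 9 lower (14 and 9 without P25, 13 and 5 without 8W). Of the named genes, 5 to 6 of 23 and 4 of 20 kept their call then. These sums held 25 cells at P15, and the cause was not tested. The share of apical Ibsp-high cells was 8.17% at P25 and 12.6% at 8W with Ibsp from 1%, 5.48% and 9.06% with Ibsp from 2%, and 9.51% at 8W over all deposited cells, as the counted cells changed by construction. With Ibsp from 1%, 159 genes were lower than in Hand2-positive cells. Against Bglap-low Ibsp-high cells without apical UMIs, an alternative chosen after seeing the data, 108 genes were higher. The log2 fold change of Spp1 turned there with a call (1.35, edgeR adjusted p = 0.0143). Col6a1 (-0.21), Col6a2 (-0.30), Mmp11 (-0.30), Postn (-0.47) and Thbs1 (0.40) changed sign without a call (edgeR adjusted p from 0.401 to 0.556). The cause was not tested. The other 79 values of shares and counts stayed within 1.5 times or within their interval. Under the alternatives not named above, among them no filter on low counts, thinned sums, other thresholds, fewer possible doublets and DESeq2, at least 17 of 20 and 17 of 23 named genes kept their call. Each count out of 20 includes Plac8 and each count out of 23 includes Stmn2, which both stay descriptions. Without the block, changes of 1 on the log2 scale were mostly missed in the simulated data, which had no difference between libraries. The measured data had 2 libraries a group and 1 age each, and the reach there was not tested. The reach of the fit with the library as a block was not tested. By adjusted p alone, that fit called 1016 genes higher and 1081 lower than in Bglap-positive cells. Of these, 409 and 554 had a log2 fold change above 1 in size. Against Hand2-positive cells it called 984 and 1269, of which 276 and 772 passed that size.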

Other observations

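Other gene groups were counted in the same way. The list of integrin subunits had 11 genes tested and also held Itgbl1, an integrin-like gene that is not a subunit. Itga10 and Itgb8 were lower than in Bglap-positive cells, and Itgav was higher and Itga11 and Itgbl1 lower than in Hand2-positive cells. The library as a block gave 2 higher and 4 lower than in Bglap-positive cells and 2 and 2 against Hand2-positive cells. No integrin subunit was higher than in Bglap-positive cells by edgeR without the block, with 2 at an unadjusted p under 0.05 and 1 (Itga8) by DESeq2. Itga10, a collagen-binding subunit, read 4.52 CPM at P25 and 2.46 at 8W in apical Ibsp-high cells against 54.9 and 47.1 in Bglap-positive cells (log2 fold change -3.83, SE 0.32, edgeR adjusted p = 0.00145). Of 17 proteases and inhibitors tested, Mmp9 and Mmp11 were higher and 3 lower (among them Adamts5 and Plat) than in Bglap-positive cells, and Mmp9, Plat, Timp1 and Timp3 were higher and Adamts1, Adamts5 and Adamts9 lower than in Hand2-positive cells. DESeq2 called Mmp9 alone higher than in Bglap-positive cells. Against Bglap-low Ibsp-high cells without apical UMIs, Mmp11 changed sign without a call (-0.30, edgeR adjusted p = 0.465). The library as a block gave 3 higher and 5 lower in the first comparison and 6 and 6 in the second. Of 15 genes of protein folding in the endoplasmic reticulum, Creb3l1 and Kdelr3 were lower than in Bglap-positive cells and Kdelr3 was lower than in Hand2-positive cells, with medians of -0.28 and -0.07, and the library as a block gave 6 and 3 lower. By edgeR, by DESeq2 and at an unadjusted p under 0.05, 0 of the 15 were higher in either comparison.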
